A study of Mus musculus with 26 samples.

Results

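The kinesin motor family was measured in mouse B-lineage cells by RNA-seq. The kinesin genes were taken as all rows of the RNA-seq count table whose symbol is Kif, a number and at most 1 letter from a to c. This gave 37 of 23762 gene symbols, of which 12 were classed as mitotic, 13 as transport and 12 as other kinesins. Kinesins are motor proteins that use ATP to move along microtubules or to take them apart. Mitotic kinesins build the spindle, move chromosomes and divide the cell, and their transcripts are known to rise as cells pass from DNA replication into mitosis. Transport kinesins carry vesicles, organelles and endosomes through the cytoplasm in dividing and resting cells alike. In the mouse marrow, large pre-B cells proliferate on interleukin 7 (IL-7), and small pre-B cells leave the cell cycle and rearrange their light chain genes. Of the 37, 11 mitotic, 13 transport and 8 other kinesins had enough reads to be tested. Kif2b, a mitotic kinesin, had 0 counts in all 18 libraries. Kif6, Kif12, Kif26a and Kif27 of the other class did not pass the low-count filter and stayed at or under 0.27 CPM (read counts scaled to a common library total) in every library.

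The 18 RNA-seq libraries came from mouse B-lineage cells in 9 groups of 2. Small pre-B cells labelled CXCR4-/-, which lack the receptor of the chemokine CXCL12 by label, were set against wild-type small pre-B cells, and both are called sorted cells here because their labels name no culture medium. Cultured pre-B cells were without IL-7 with CXCL12, without IL-7, or with IL-7. CXCR4-/- small pre-B cells were cultured without IL-7 with CXCL12, or without IL-7 alone. The last groups were pre-B cells given ERK inhibitor II and CXCL12 in the absence of IL-7, the inhibitor being a compound named for blocking the kinase ERK, and pre-B cells with IL-7 and CXCL12. Among cultures not labelled CXCR4-/-, the second library without IL-7 is titled as small pre-B cells and the second without IL-7 with CXCL12 is named so in the table, so the labelled stage goes with genotype only in part. Strain, age, the way Cxcr4 was deleted, doses and culture times are left unstated by the labels. Cultures not labelled CXCR4-/- are called sufficient. The labels do not state whether the 2 libraries of a group are from different animals or cultures, and p-values here reflect spread among libraries that may be technical.

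Libraries held 17257914 to 50235192 counts. Cd79b, a signalling chain of the B cell receptor, was at 661 to 2081 CPM in all 18. Cxcr4 was at 37.2 and 409 CPM in the sorted libraries labelled CXCR4-/-, against 943 and 922 CPM in wild-type ones, so the second CXCR4-/- library went against its label in part. It was at 133 to 137 and 114 to 130 CPM in the CXCR4-/- cultures with and without CXCL12, against 226 to 237 and 169 to 171 CPM in the sufficient cultures. Which exons were removed is not stated, so these reads may not test the label. The 4 libraries with ERK inhibitor or with IL-7 and CXCL12 held 1399 to 1730 CPM of Gapdh, a glycolytic enzyme, against 1.05 to 12.3 CPM in the other 14, and comparisons across this divide cannot be told apart from it. The libraries without IL-7, and those without IL-7 with CXCL12, differed by little more than sampling noise within the pair (chi-square over degrees of freedom 1.48 and 1.34, against 5.94 to 265 in the other pairs). The value of 265 belonged to the CXCR4-/- culture without IL-7, whose first library stood apart from the second.

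Summed over the class, mitotic kinesin transcripts were low in only 2 of the 9 groups: sorted wild-type cells and pre-B cultures without IL-7 with CXCL12. The mitotic sum was 2308 and 2109 CPM in sorted CXCR4-/- cells, against 456 and 429 CPM in sorted wild-type cells. It was 779 and 770 CPM in cultures without IL-7 with CXCL12, 2147 and 2135 CPM in cultures lacking IL-7, and 1906 and 1915 CPM where IL-7 was present. The remaining groups lay high. The sum was 2510 and 2657 CPM in CXCR4-/- cultures with CXCL12 and 1790 and 2245 CPM in CXCR4-/- cultures without it. It was 2162 and 2153 CPM with ERK inhibitor and CXCL12, and 2356 and 2390 CPM with IL-7 and CXCL12. The transport sum moved far less, with group means of 538 to 696 CPM in the cultures other than CXCR4-/- without IL-7, where it was 245 and 440 CPM. In sorted cells the transport sum averaged 517 ± 2.97 CPM in CXCR4-/- cells and 509 ± 19.3 CPM in wild-type cells (SD, n = 2 each). Mitotic kinesins thus held 58.5% and 54.6% of all kinesin counts in sorted CXCR4-/- cells, against 26.8% and 26.4% in wild-type cells. With 2 libraries a group, an exact permutation test of these shares cannot pass 0.05, so none was made. In bulk libraries, fewer cells of a kind and less RNA per cell cannot be told apart.

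**Figure D1:**
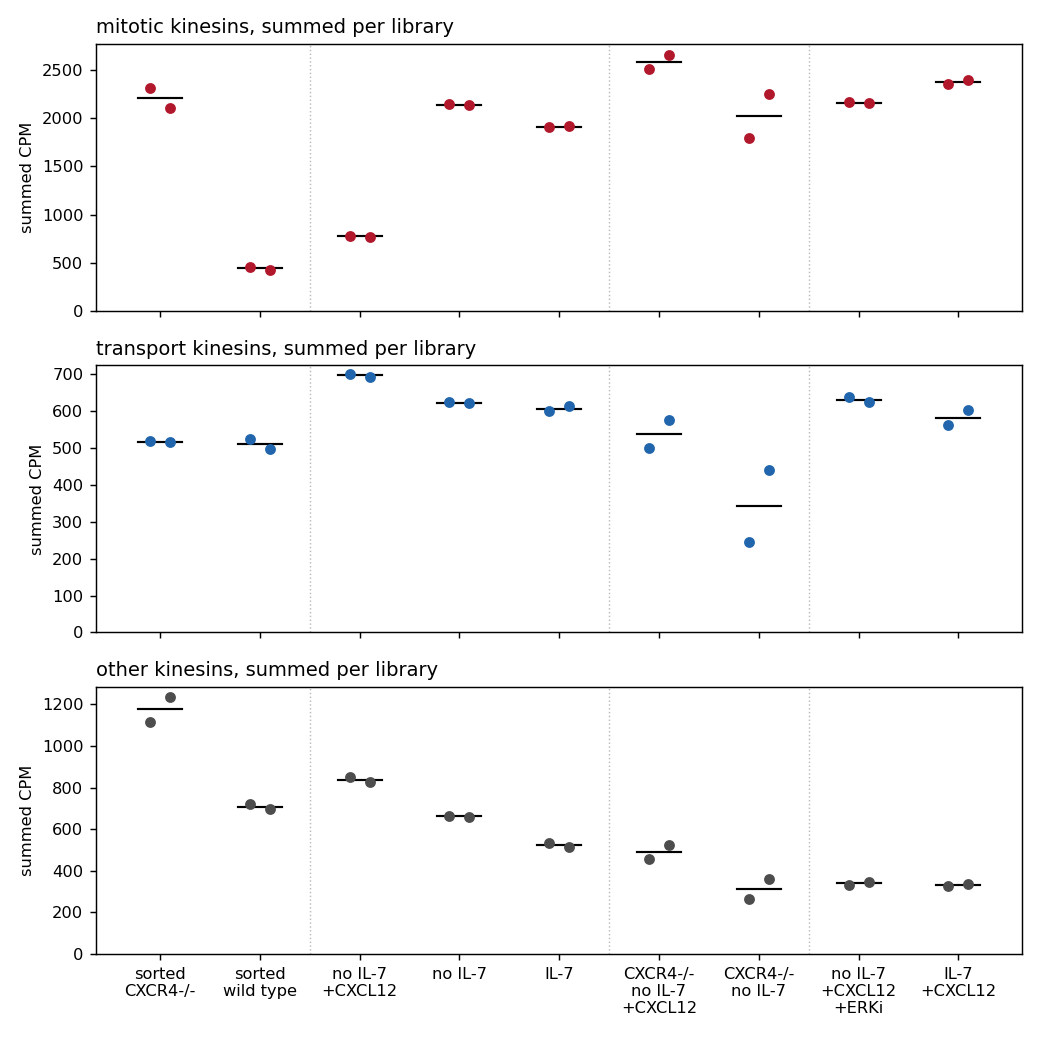
Summed CPM of the mitotic (top), transport (middle) and other kinesins (bottom) in each library, by group along the x axis; points are libraries and bars are group means. The mitotic sum is 429 to 456 CPM in sorted wild-type cells and 770 to 779 CPM without IL-7 with CXCL12, and 1790 CPM or more in every other library.

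Sorted small pre-B cells labelled CXCR4-/- had higher transcript levels of every mitotic kinesin tested than wild-type cells. All 11 rose, against 16.6% of all 14862 genes tested that rose and 17.6% that fell in sorted CXCR4-/- cells (34.2% called in either direction; edgeR's quasi-likelihood test, Benjamini-Hochberg adjusted p under 0.05). The median log2 change of the class was 2.34, beside -0.01 for all genes. The smallest was that of Kif20b, a motor of late cytokinesis, at 1.26 ± 0.23 (SE; adjusted p = 0.001). The largest was that of Kif18b, which sets the length of astral microtubules, at 2.98 ± 0.15 (adjusted p = 5.8e-08). All 11 also rose without the second CXCR4-/- library, which held more Cxcr4 than the first.

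Among the spindle motors, Kif11, which pushes the spindle poles apart, was at 608 and 573 CPM in sorted CXCR4-/- cells, against 102 and 88.8 CPM in wild-type cells. Its log2 change was 2.63 ± 0.17 (edgeR, adjusted p = 4.3e-07). Kif15, which can stand in for Kif11 at the spindle, was at 210 and 197 CPM in CXCR4-/- cells and at 57 and 55 CPM in wild-type cells. The chromosome motors showed the same order. Kif22, which pushes chromosome arms towards the spindle equator, was at 285 and 248 CPM in CXCR4-/- cells, against 48.8 and 46.2 CPM in wild-type cells. Kif2c, a microtubule depolymerase at centromeres, was at 109 and 93.5 CPM in CXCR4-/- cells, against 16.8 and 16.7 CPM in wild-type cells. Kif4, which works in chromosome condensation and at the spindle midzone, rose by 2.12 ± 0.10 and Kif18a, which aligns chromosomes, by 1.84 ± 0.17 on the log2 scale. Of the cytokinesis motors, Kif20a was at 190 and 172 CPM in CXCR4-/- cells, against 34.7 and 36.7 CPM in wild-type cells. Kif23, the motor of the centralspindlin complex, was at 239 and 215 CPM in CXCR4-/- cells, against 44 and 47.2 CPM in wild-type cells. Kif14, which acts at the midbody, rose by 2.57 ± 0.18 on the log2 scale. In each of the 11 genes both CXCR4-/- libraries lay above both wild-type libraries, as did 31.7% of all genes tested (groups did not overlap in either direction in 70.4%), and all 11 had their lowest group mean in sorted wild-type cells.

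The transport kinesins did not move together in sorted cells. Of 13, 2 rose and 2 fell, near the shares of all genes (16.6% rose and 17.6% fell), and the class median was -0.07. Kif17, a motor of dendrites and cilia, was at 6.48 and 7.36 CPM in CXCR4-/- cells and at 2.68 and 2.74 CPM in wild-type cells, a log2 change of 1.35 ± 0.20 (edgeR, adjusted p = 0.00024). Kif1c, a carrier of vesicles, was at 76.3 and 78.8 CPM in CXCR4-/- cells and at 49.4 and 56.6 CPM in wild-type cells, and rose by 0.55 ± 0.18 (adjusted p = 0.032). Kif3b, a subunit of the kinesin-2 motor of cilia, was at 55.6 and 50.3 CPM in CXCR4-/- cells and at 71.1 and 67.4 CPM in wild-type cells, a log2 change of -0.39 ± 0.10 (adjusted p = 0.013). Kif1a, known as a carrier of synaptic vesicle precursors, was below 1 CPM in all 4 libraries, at 0.0909 and 0.109 CPM in CXCR4-/- cells and at 0.556 and 0.219 CPM in wild-type cells. Its log2 change was -1.94 ± 0.59 (adjusted p = 0.028), a call that leaving out any 1 of 3 libraries ended: adjusted p = 0.12 without the first CXCR4-/- library, 0.077 without the second and 0.45 without the first wild-type library. Kif5b, the conventional kinesin heavy chain of most tissues, was at 221 and 213 CPM in CXCR4-/- cells, against 244 and 217 CPM in wild-type cells (log2 change -0.09 ± 0.26, adjusted p = 0.84). Its 2 groups overlapped. Of the 4 transport calls only that of Kif17 survived the removal of each library in turn. The call for Kif1c was lost on dropping any 1 of the 4 libraries (adjusted p of 0.065 to 0.21), and that for Kif3b without the second CXCR4-/- library (0.088) or the first wild-type library (0.089).

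Among the other kinesins, 4 of 8 rose and 1 fell in sorted CXCR4-/- cells, beside 16.6% of all genes that rose and 17.6% that fell. Kif24, a depolymerase of centrioles, was at 30.8 and 31.9 CPM in CXCR4-/- cells, against 12 and 11.9 CPM in wild-type cells (log2 change 1.39 ± 0.33, edgeR adjusted p = 0.0065, and 0.051 without the first wild-type library). Kif19a, which limits the length of cilia, rose by 1.13 ± 0.18 and Kif2a, a depolymerase of spindle poles and axons, by 0.31 ± 0.08 on the log2 scale. The call for Kif2a ended without the first CXCR4-/- library (adjusted p = 0.083) or the second wild-type library (0.081). Kif21b, which slows microtubule growth and is known from T cells at the immune synapse, was at 982 and 1101 CPM in CXCR4-/- cells, against 628 and 610 CPM in wild-type cells. It rose by 0.75 ± 0.18 (adjusted p = 0.0068) and made up most of the sum of its class. Kif21a, its paralog, had 0 counts in both CXCR4-/- libraries and 15 counts over both wild-type libraries, so it was at least 7.96-fold lower in CXCR4-/- cells, taking 3 counts over the group as the floor.

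Gene lists of the pathway were set beside the family, with 16.6% of all genes rising and 17.6% falling in sorted CXCR4-/- cells. Of 30 genes listed as mitotic partners, 30 rose in sorted CXCR4-/- cells, with a median log2 change of 2.11. The list holds genes of spindle assembly and cytokinesis and also general cell cycle genes such as Mki67, Top2a and Cdk1. Racgap1, which forms centralspindlin with Kif23, rose by 2.17 ± 0.08 and Aurkb, the kinase that directs it, by 2.18 ± 0.08. Of 15 DNA replication genes 15 rose, with a median of 0.90. Of 13 tubulins, 5 rose and 1 fell. Of 15 partners of transport kinesins, 2 rose and 1 fell (Klc1, a kinesin light chain, by 0.41, Plekhm2, a lysosome adaptor, by 0.45, and Trak2, a mitochondrial adaptor, at -0.54). Of 20 subunits and regulators of dynein, the motor of the opposite direction, 2 rose and 3 fell, and the largest rise was that of Nde1, which also works in mitosis, at 0.91 ± 0.08. Of 5 kinesins outside the naming rule 3 rose. Kifc1, a minus-end motor of spindle poles, rose by 2.75 ± 0.10 and Cenpe, the kinetochore motor, by 1.90 ± 0.13. Kifc5b, a near copy of Kifc1 whose reads may be shared with it, rose by 2.24 ± 0.15. Kifc2 (-0.39 ± 0.21, adjusted p = 0.17) and Kifc3 (-0.46 ± 0.52, adjusted p = 0.54) did not pass the test.

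Markers of other states moved in part with the same comparison, in which 16.6% of all genes rose and 17.6% fell. Of 10 mature B cell markers 8 fell, with sums of 773 to 818 CPM in sorted CXCR4-/- libraries and 1394 to 1425 CPM in wild-type libraries. Of 9 progenitor markers 5 rose and 2 fell. Of 11 myeloid markers 2 rose and 1 fell, near the shares of all genes. Myeloid markers summed to 1076 and 6140 CPM in the CXCR4-/- libraries and to 4870 and 4930 CPM in the wild-type ones. Their part in the kinesin differences was not tested.

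Promoters of kinesins that moved together were read for sequence motifs of genes transcribed in mitosis. RefSeq windows of GRCm38.p6, from 250 bases before to 50 bases after the transcription start, were found for 31 of the 37 kinesins, some with more than 1 start, and 11 of the windows belong to mitotic kinesins, Kif2b included. The cell cycle homology region (CHR, TTTGAA) and the CCAAT box are known from promoters of such genes. TTTGAA on either strand lay in 9 of 11 mitotic kinesin windows, 1 of 12 transport windows (Kif1a) and 2 of 12 other windows (Kif26b and Kif27), beside 17.9% of all 32851 windows. CCAAT on either strand lay in 7 of 11 mitotic, 4 of 12 transport and 4 of 12 other windows, beside 37.4% of all. TTCGAA, a variant of the CHR, lay in 1 kinesin window, that of Kif24, beside 1.56% of all. A match describes letters and shows neither binding nor a cause, and these windows were chosen with the expression of the genes known. The 120 bases before the start are printed 5′ to 3′ on the strand of the gene, with each match of the 3 motifs in capitals; TTCAAA and ATTGG are TTTGAA and CCAAT read on the other strand, and no matches overlap in these stretches. Kif11, Kif15, Kif22 and Kif2c show where the motif lies in motors of spindle and chromosomes, Kif24 shows the variant, and Kif3b and Kif1c show transport kinesins without either CHR form.
Kif11 (chr19:37376262-37376381, plus strand): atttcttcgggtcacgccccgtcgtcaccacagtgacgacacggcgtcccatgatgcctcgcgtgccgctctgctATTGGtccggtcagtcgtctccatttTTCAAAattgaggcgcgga
Kif15 (chr9:122950961-122951080, plus strand): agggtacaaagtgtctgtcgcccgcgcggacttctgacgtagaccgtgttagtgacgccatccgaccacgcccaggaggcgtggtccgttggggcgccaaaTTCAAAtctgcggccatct
Kif22 (chr7:127042421-127042540, minus strand): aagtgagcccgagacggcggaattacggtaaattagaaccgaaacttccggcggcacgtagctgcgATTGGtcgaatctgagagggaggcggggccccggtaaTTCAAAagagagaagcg
Kif2c (chr4:117178773-117178892, minus strand): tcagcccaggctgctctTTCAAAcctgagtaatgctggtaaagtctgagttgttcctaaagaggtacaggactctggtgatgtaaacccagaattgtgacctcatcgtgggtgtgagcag
Kif24 (chr4:41464849-41464968, minus strand): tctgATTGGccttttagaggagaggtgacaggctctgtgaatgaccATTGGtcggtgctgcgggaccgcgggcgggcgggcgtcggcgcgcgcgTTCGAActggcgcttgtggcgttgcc
Kif3b (chr2:153291296-153291415, plus strand): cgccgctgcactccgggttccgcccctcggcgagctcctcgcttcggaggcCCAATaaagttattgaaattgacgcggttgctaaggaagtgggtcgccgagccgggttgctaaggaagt
Kif1c (chr11:70700428-70700547, plus strand): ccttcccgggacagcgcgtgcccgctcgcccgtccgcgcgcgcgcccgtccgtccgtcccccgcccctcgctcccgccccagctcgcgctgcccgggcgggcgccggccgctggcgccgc
In Kif11 and Kif15 a TTTGAA match begins 19 bases before the start, and in Kif22 a match begins 17 bases before it. Kif15 and Kif22 also hold a match outside the printed bases, 234 and 215 bases before the start. The match of Kif14 begins 228 bases before the start. In Kif2c it begins 103 bases before the start. In Kif4, Kif18b, Kif20b and Kif23 it lies in the 50 bases after the start, and the windows of Kif18a and Kif2b held no match.

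**Figure D2:**
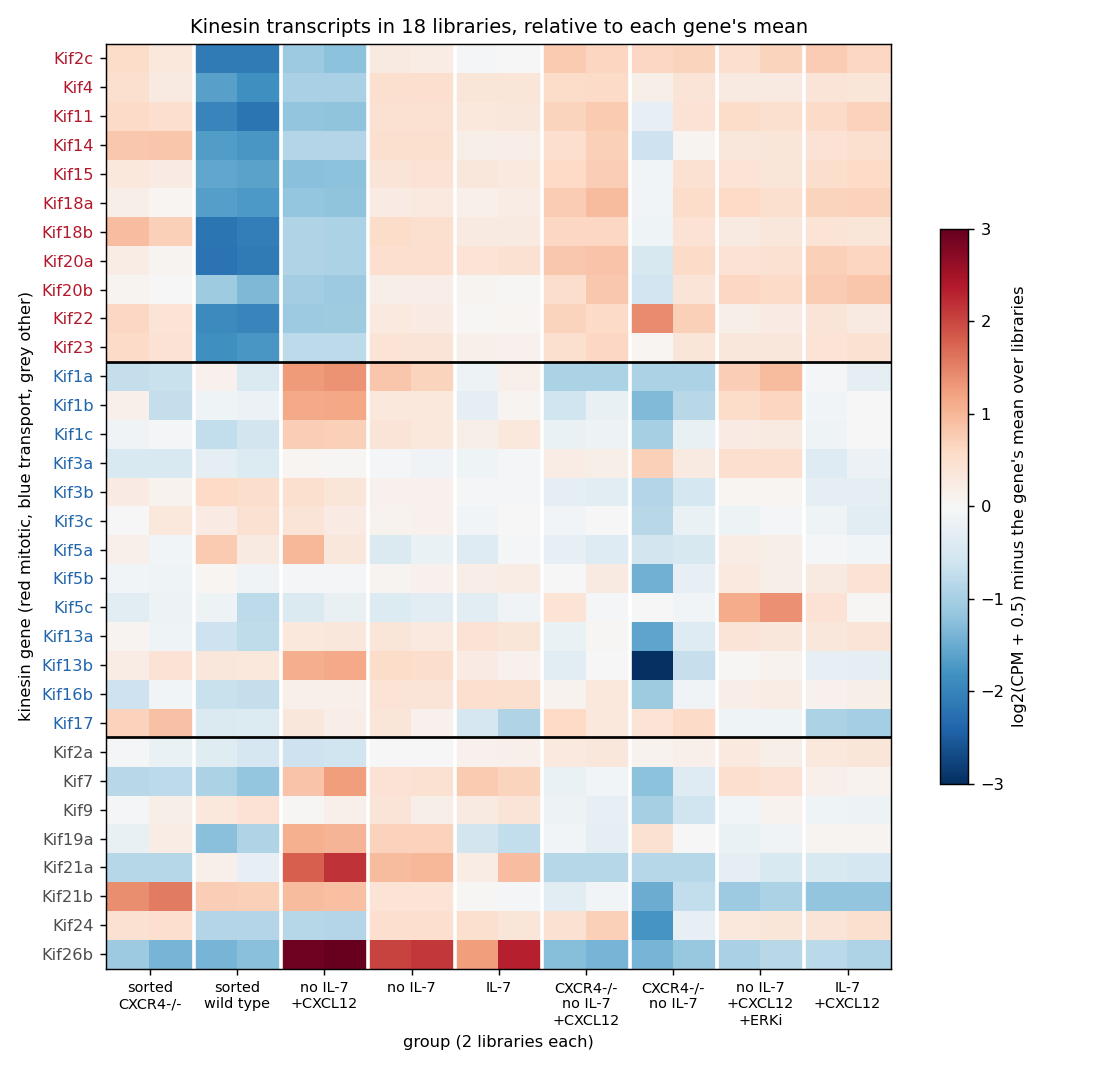
Level of each of the 32 kinesins tested (rows, mitotic above, transport in the middle, other below) in each library (columns, 2 per group), as log2(CPM + 0.5) minus the mean of the gene over the 18 libraries; the colour scale stops at -3 and 3. The 11 mitotic rows are blue in sorted wild-type cells and in cultures without IL-7 with CXCL12, as is that of Kif24. Of 13 transport rows, 8 have their lowest group mean in CXCR4-/- cultures without IL-7. There 34.6% of all genes were called lower than in sufficient cultures without IL-7.

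IL-7 withdrawal alone moved no mitotic kinesin past the threshold. Of 11, 0 rose and 0 fell in cultures without IL-7 relative to cultures with IL-7, beside 5.6% of all genes that rose and 6.23% that fell (11.8% in either direction; edgeR; 2 rose at an unadjusted p under 0.05 and 2 by DESeq2). Their changes ran from 0.08 to 0.29, with a median of 0.14, and in all 11 both libraries without IL-7 lay above both with IL-7, as did 45.2% of all genes (77.6% did not overlap in either direction). Kif11 was at 558 and 555 CPM without IL-7, against 502 and 512 CPM with IL-7 (log2 change 0.14 ± 0.16, adjusted p = 0.67). When only these 2 groups were fitted, 8 mitotic kinesins rose, and without the 1 library that stood apart 5 did. Of the 15 DNA replication genes 4 fell in the same comparison. Among transport kinesins Kif1a was at 1.21 and 1.05 CPM without IL-7, against 0.374 and 0.582 CPM with IL-7 (log2 change 1.24 ± 0.35, adjusted p = 0.049), and Kif17 at 5.03 and 4.17 CPM without IL-7, against 2.55 and 1.81 CPM with IL-7 (1.08 ± 0.19, adjusted p = 0.0032). Kif19a was at 31.2 CPM in both libraries without IL-7, against 12.8 and 11.3 CPM with IL-7 (1.37 ± 0.18, adjusted p = 0.00042). Leaving out any 1 of the 4 libraries left 1 or 2 of these 3 called, and Kif1a was lost each time (adjusted p of 0.084 to 0.31).

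CXCL12 added to cultures without IL-7 went with lower transcript levels of every mitotic kinesin tested. All 11 fell, beside 17.3% of all genes that rose and 13.2% that fell (30.6% in either direction), and the class median was -1.44 against 0.09 for all genes. Kif15 fell most, to 69.7 and 71.3 CPM with CXCL12, against 220 and 227 CPM without it (log2 change -1.66 ± 0.13, edgeR adjusted p = 2.7e-06). Kif11 fell by nearly as much, to 177 and 175 CPM with CXCL12, against 558 and 555 CPM without (-1.66 ± 0.17, adjusted p = 1.8e-05). Kif23 fell least, to 92.2 and 91.6 CPM with CXCL12, against 212 and 210 CPM without (-1.20 ± 0.10, adjusted p = 2.9e-06). The spread of the class was narrow, from -1.66 to -1.20. Kif2a, a depolymerase of spindle poles and axons placed in the other class, changed by -0.62 ± 0.08. In all 11 mitotic genes both libraries with CXCL12 lay below both without it, as did 36% of all genes (84.3% did not overlap in either direction). With the 2 close pairs of libraries each summed to 1, 10 of 11 fell, Kif20b being lost at an adjusted p of 0.064 with a log2 change of -1.24.

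No transport kinesin passed the test in the direction of the mitotic class. Of all genes, 17.3% rose and 13.2% fell, and the transport rises were near that share. Of 13 transport kinesins, 2 rose and 0 fell, with a median of 0.21 (edgeR, and 0 fell at an unadjusted p under 0.05 and 0 by DESeq2). Without the library that stood apart, 5 rose and 2 fell, an alternative chosen after the data were seen. Kif5a, a conventional kinesin of neurons, was at 1.31 and 0.66 CPM with CXCL12, against 0.173 and 0.293 CPM without (log2 change 2.15 ± 0.44, adjusted p = 0.0032, a call lost at 0.096 without the first library with CXCL12 and at 0.051 without the first one lacking it). Kif1b, a carrier of mitochondria and synaptic vesicle precursors, was at 51.8 and 53 CPM with CXCL12, against 29.1 and 29.3 CPM without (0.84 ± 0.24, adjusted p = 0.02). Dropping any 1 of the 4 libraries compared ended that call (adjusted p of 0.081 to 0.11), as did summing the close pairs (0.23). Kif13b, a carrier of membrane cargo, was at 88.1 and 90.5 CPM with CXCL12, against 60.5 and 59 CPM without, and its adjusted p was 0.45. Its SE of 0.54 came from a spread shared over all groups, among them the CXCR4-/- cultures without IL-7 at 3.01 and 25.1 CPM, and without the first of these 2 libraries its log2 change was 0.48 (adjusted p = 0.00041).

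Of the other kinesins 1 rose and 2 fell with CXCL12, beside 17.3% of all genes that rose and 13.2% that fell. Kif24 fell to 12.2 and 11.9 CPM, against 31.9 and 32 CPM without CXCL12 (log2 change -1.41 ± 0.33, edgeR adjusted p = 0.0071, lost at 0.14 with the close pairs summed and at 0.053 to 0.056 without either library with CXCL12). Kif2a fell to 57.1 and 58.2 CPM, against 88.5 and 89.2 CPM without (-0.62 ± 0.08, adjusted p = 8e-05). The promoter window of Kif24 holds the variant of the CHR printed above, and those of Kif2a hold none of the motifs searched. A link between motif and change was not tested. Kif21a was at 2.68 and 3.58 CPM with CXCL12, against 1.26 and 1.32 CPM without (1.26 ± 0.37, adjusted p = 0.031, a call lost on dropping any 1 of the 4 libraries, at 0.077 to 0.16). Kif21b was at 722 and 695 CPM with CXCL12, against 501 and 496 CPM without (0.51 ± 0.18, adjusted p = 0.051).

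In this comparison 17.3% of all genes rose and 13.2% fell. Of the mitotic partners 27 of 30 fell with CXCL12, led by Nusap1, a spindle microtubule protein, at -1.81 ± 0.09. Anln, Cit and Numa1 did not pass the test. Of 15 DNA replication genes 15 fell, with a median of -1.64. Among 15 transport partners 5 rose, 3 of them light chains of conventional kinesin: Klc2 by 0.90 ± 0.15, Klc3 by 0.93 ± 0.29 and Klc4 by 0.48 ± 0.09 on the log2 scale. Of the 20 dynein genes 2 rose and 2 fell. Outside the naming rule, Kifc1 fell by 1.36, Cenpe by 1.36 and Kifc5b by 1.01, while Kifc2 and Kifc3 rose by 1.00 and 0.97. Of 10 mature B cell markers 5 rose, and myeloid markers summed to 716 to 720 CPM with CXCL12 and 289 to 290 CPM without it. Their part in the kinesin differences was not tested either.

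Against cultures with IL-7, cultures without IL-7 with CXCL12 gave the same direction in the mitotic class. All 11 fell, beside 29.8% of all genes that rose and 21.5% that fell (51.3% in either direction), with changes from -1.57 (Kif15) to -0.93 (Kif23). Of the transport kinesins 6 rose and 0 fell. Kif1a was at 1.84 and 1.98 CPM without IL-7 with CXCL12, against 0.374 and 0.582 CPM with IL-7 (log2 change 1.98 ± 0.35, edgeR adjusted p = 0.001). The other risers were Kif5a, Kif1b, Kif17, Kif3b and Kif1c. Of the other kinesins, Kif21a, Kif19a, Kif26b and Kif21b rose and Kif24 and Kif2a fell. This comparison shares its libraries with CXCL12 with the one before, so the 2 are not independent.

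Transcripts of 3 low kinesins were highest in the group where markers of stromal cells were highest. Kif26b, which is known from kidney development and Wnt5a signalling, was at 9.47 and 11.7 CPM without IL-7 with CXCL12, at 4.92 and 5.27 CPM in cultures lacking IL-7 and at 2.66 and 6.14 CPM where IL-7 was present. It was at 0.25 CPM or less in each of the other 12 libraries. Stromal markers (12 genes, among them Col1a1 and Pdgfra) summed to 3882 to 3968, 1628 to 1654 and 735 to 1202 CPM in these 3 groups, and to 27.6 to 186 CPM elsewhere. With CXCL12, 6 of the 12 rose and 1 fell relative to cultures without IL-7, beside 17.3% of all genes that rose and 13.2% that fell. Kif21a and Kif1a also had their highest group mean without IL-7 with CXCL12. This was not particular to them, since 5 transport and 4 other kinesins in all were highest there. With IL-7, Kif1a was at 0.374 and 0.582 CPM. In the CXCR4-/- cultures Kif1a and Kif21a had 0 counts. Stromal markers there summed to 92.1 to 95.8 CPM with CXCL12 and to 83.2 to 103.8 CPM without it. Stromal sums were lower with IL-7 and CXCL12 (72.0 to 73.5 CPM) and in sorted wild-type cells (32.9 to 33.9 CPM). In those 2 groups Kif1a was at 0.219 to 0.556 CPM and Kif21a at 0.128 to 0.505 CPM. Kif1a was also at 1.12 and 1.38 CPM with ERK inhibitor, where stromal markers summed to 118 to 129 CPM. The part of stromal RNA in these kinesin levels was not tested.

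**Figure D3:**
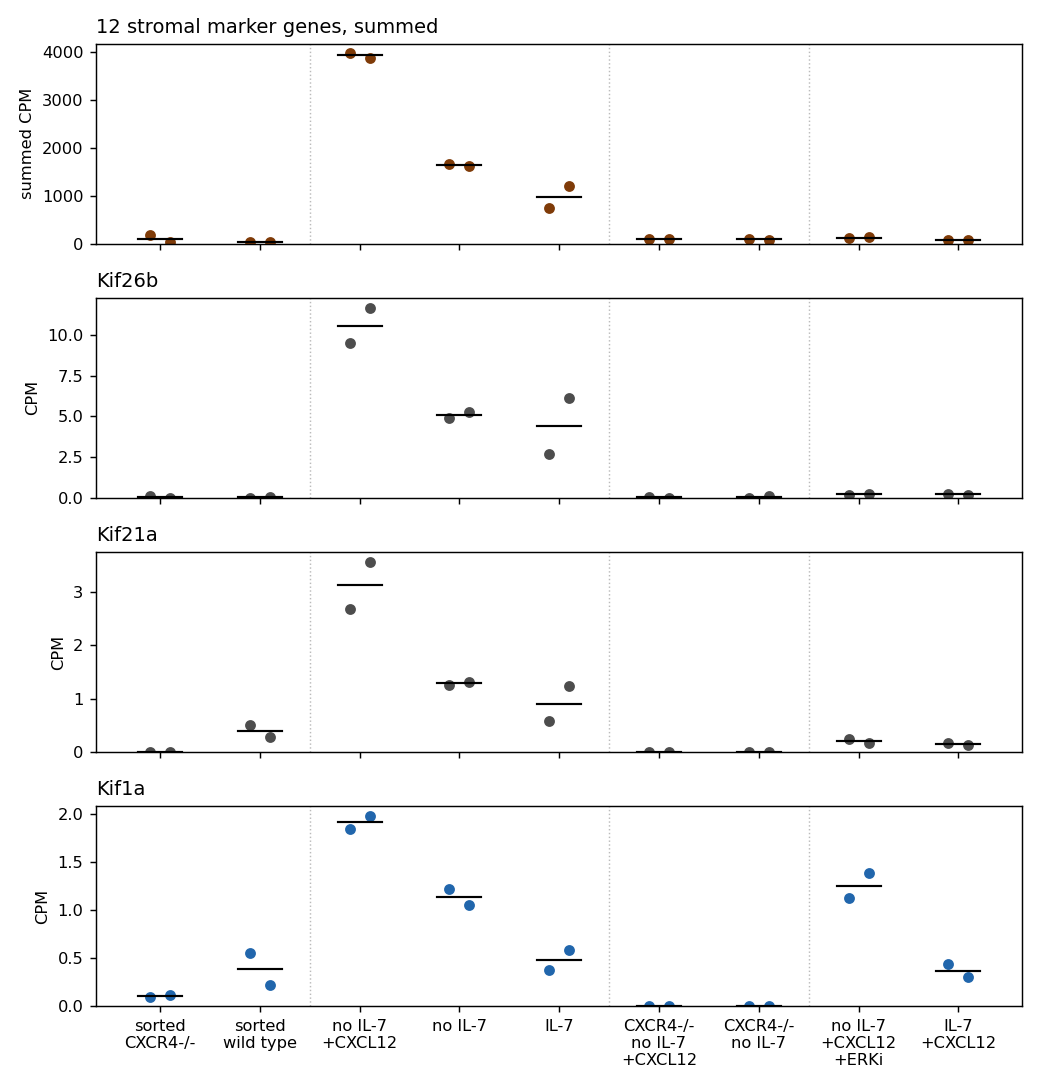
Summed CPM of 12 stromal marker genes (top) and CPM of Kif26b, Kif21a and Kif1a (below) in each library, by group; points are libraries and bars are group means. All 4 panels are highest without IL-7 with CXCL12, and Kif1a alone is also at 1.12 and 1.38 CPM with ERK inhibitor, where the stromal sum is 118 to 129 CPM.

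In CXCR4-/- cultures most mitotic kinesins were higher with CXCL12. Of 11, 9 rose and 1 fell relative to CXCR4-/- cultures without CXCL12, beside 12.8% of all genes that rose and 21% that fell (33.8% in either direction), with a median of 0.46. Kif14 rose most, at 96.8 and 112 CPM with CXCL12, against 44.1 and 72.4 CPM without (log2 change 0.85 ± 0.16, edgeR adjusted p = 0.022). Kif22 moved the other way, at 293 and 275 CPM with CXCL12, against 494 and 305 CPM without (-0.49 ± 0.16, adjusted p = 0.039). Kif2c was at 129 and 117 CPM with CXCL12, against 114 and 120 CPM without, and did not pass the test. The mitotic partners went both ways. Ect2 rose by 0.71 ± 0.20 (edgeR, adjusted p = 0.024), while Birc5 changed by -1.11 ± 0.31 (adjusted p = 0.023) and Cdk1 by -0.52 ± 0.17 (adjusted p = 0.036). The replication genes also split, with Mcm4 at 0.33 ± 0.11 (adjusted p = 0.042) and Pcna at -0.41 ± 0.14 (adjusted p = 0.04). Of the transport kinesins Kif5b, Kif13a and Kif16b, the last 2 carriers of endosomal cargo, and Kif3b rose, and of the others Kif24, Kif21b and Kif9, a kinesin of motile cilia. The counts depended on single libraries. The first CXCR4-/- culture without IL-7 held 85.7 CPM of Kif5b and 3.01 CPM of Kif13b, against 196 and 25.1 CPM in the second. Without it 8 kinesins were called, 4 of them mitotic, and without the second 25 were, against 17 with all libraries. Without either library with CXCL12, with the close pairs summed, or with only these groups fitted, edgeR called 0 of 32. With all libraries, 9 mitotic kinesins rose and 1 fell at an unadjusted p under 0.05, and DESeq2 called as many.

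The effect of CXCL12 on the mitotic class differed between the genotypes. The difference of log2 changes, CXCR4-/- minus sufficient, was above 0 and passed the test for all 11 mitotic kinesins, beside 12.1% of all genes above 0 and 13.1% below (25.2% in either direction). Its median was 1.95, against -0.14 for all genes. For Kif11, CXCL12 changed the level by 0.59 ± 0.16 in CXCR4-/- cultures and by -1.66 ± 0.17 in sufficient cultures, a difference of 2.25 ± 0.24 (edgeR, adjusted p = 4e-05). Kif22 gave the smallest difference, 0.87 ± 0.23 (adjusted p = 0.019). Without the library that stood apart, all 11 still passed, Kif11 at 2.05 and Kif22 at 1.37. Kif22 was lost with only the 4 groups fitted (adjusted p = 0.12) and with the close pairs summed (0.13), and in each case the other 10 passed. Leaving out either sufficient library with CXCL12, the first sufficient library without it or the first CXCR4-/- library with it also ended the call for Kif22, at 0.055 to 0.062.

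Of 13 transport kinesins 0 differed between the genotypes in their response to CXCL12 (edgeR; at an unadjusted p under 0.05 2 were above and 1 below 0, and DESeq2 called 2 above). The median difference of the class was 0.11, and of all genes 12.1% passed above 0 and 13.1% below. Kif5b gave 1.00 ± 0.37 (adjusted p = 0.065) and Kif16b, a motor of early endosomes, 0.99 ± 0.34 (adjusted p = 0.052). Without the library that stood apart, Kif5b, Kif16b and Kif13a passed. Without the second CXCR4-/- library lacking CXCL12, 8 transport kinesins passed. Of the other kinesins, Kif24 at 2.87 ± 0.47, Kif9 at 0.98 ± 0.30 and Kif2a at 0.81 ± 0.11 were above 0, and Kif19a at -0.79 ± 0.25 below. Without the library that stood apart Kif9 and Kif19a did not pass. Of the mitotic partners 29 of 30 and of the replication genes 15 of 15 were above 0, while 5 transport partners, 4 of them light chains of kinesin (Klc1, Klc2, Klc3 and Klc4), were below 0.

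**Figure D4:**
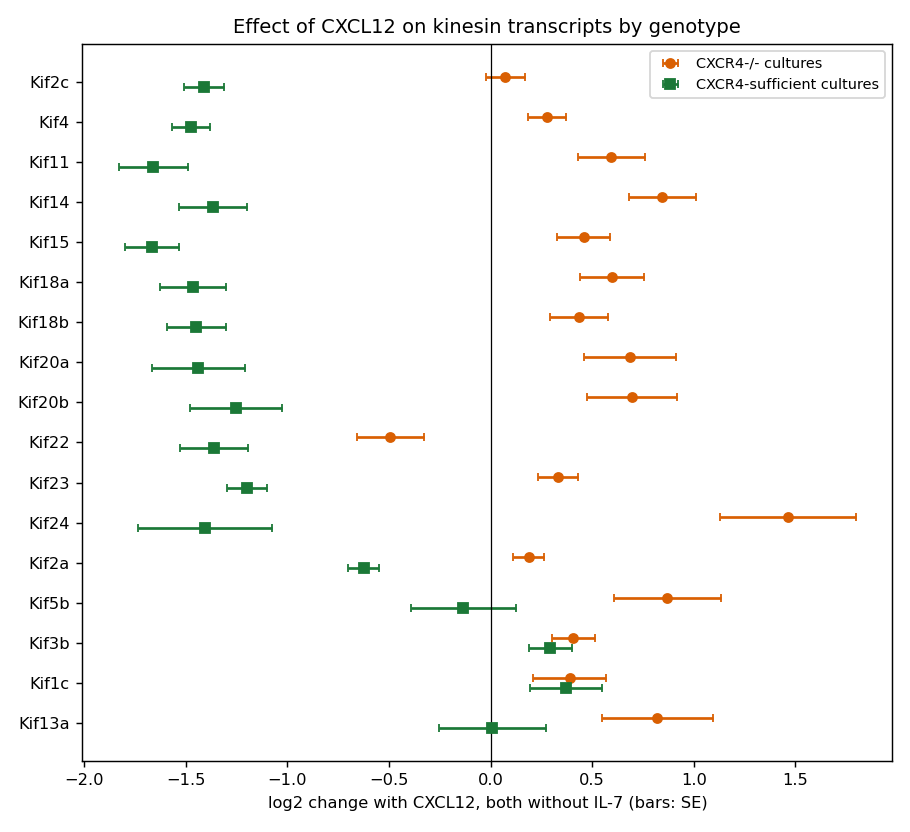
Log2 change with CXCL12, both without IL-7, in CXCR4-/- cultures (circles) and CXCR4-sufficient cultures (squares), for the 11 mitotic kinesins tested and 6 others; bars are SE from a fit of 18 libraries. Every mitotic kinesin lies between -1.66 and -1.20 in sufficient cultures and between -0.49 and 0.85 in CXCR4-/- cultures.

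Between cultures with ERK inhibitor and CXCL12 and cultures with IL-7 and CXCL12, no mitotic kinesin passed the test. Of 11, 0 rose and 0 fell (edgeR; 0 at an unadjusted p under 0.05 and 0 by DESeq2), beside 6.5% of all genes that rose and 4.54% that fell (11% in either direction), and changes ran from -0.24 (Kif20a) to -0.08 (Kif18b). In 10 of 11 both libraries with the inhibitor lay below both with IL-7 and CXCL12, as did 25.9% of all genes (67.8% did not overlap in either direction). Kif11 was at 591 and 567 CPM with ERK inhibitor and CXCL12, against 602 and 649 CPM with IL-7 and CXCL12. With only these groups fitted, and without the library that stood apart, 3 mitotic kinesins fell. Of the 15 replication genes 6 fell. Among transport kinesins 4 rose and 0 fell, and of the 8 others 0 were called (0 at an unadjusted p under 0.05 and 0 by DESeq2). Kif5c, a conventional kinesin of neurons, was at 2.18 and 2.68 CPM with ERK inhibitor, against 1.17 and 0.765 CPM with IL-7 and CXCL12 (log2 change 1.33 ± 0.33, adjusted p = 0.021). Its highest group mean lay with the inhibitor. Kif3a, the partner of Kif3b in kinesin-2, was at 36.4 CPM in both libraries with ERK inhibitor, against 19.3 and 22.4 CPM (0.80 ± 0.13, adjusted p = 0.0016). Kif1a rose by 1.77 ± 0.36 and Kif17 by 1.03 ± 0.19. Leaving out 1 library left 1 to 3 of these 4 called, and without the second library with IL-7 and CXCL12 only Kif3a was called. Myeloid markers summed to 3352 and 3421 CPM with ERK inhibitor and to 1693 and 1829 CPM with IL-7 and CXCL12. Of the 12 stromal markers 6 rose. The part of both marker sets in these calls was not tested. Under library totals alone 74.1% of all called genes rose, against 58.9% here.

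Against cultures with CXCL12 and no inhibitor, ERK inhibitor cultures were higher in all 11 mitotic kinesins, beside 26.9% of all genes that rose and 30% that fell (56.9% in either direction), with changes from 1.14 (Kif23) to 1.75 (Kif2c). Kif2c was at 105 and 118 CPM with the inhibitor, against 34.8 and 31.7 CPM without it. Kif24 and Kif2a rose by 1.23 and 0.84, and of the transport kinesins Kif5c and Kif3a rose and Kif1c and Kif3b fell. Without the first library of either group both falls were lost. Kif26b, Kif21a, Kif21b and Kif19a fell, while the stromal sum was 118 to 129 CPM with the inhibitor and 3882 to 3968 CPM without it. The inhibitor libraries belong to the Gapdh-high set and the others do not, so the inhibitor cannot be told apart from that difference between sets.

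The same divide runs through the effect of CXCL12 with IL-7 present. There 4 of 11 mitotic kinesins rose (Kif20b, Kif2c, Kif18a and Kif23) and 0 fell, beside 15.3% of all genes that rose and 16.5% that fell (31.8% in either direction). Leaving out any of the 4 libraries left 1, whereas 9 rose without the library that stood apart and 10 with only these groups fitted. Kif2c was at 126 and 115 CPM with IL-7 and CXCL12, against 72.8 and 73.8 CPM with IL-7 (log2 change 0.72 ± 0.10, edgeR adjusted p = 0.00012). Of the transport kinesins 0 were called (0 at an unadjusted p under 0.05 and 0 by DESeq2). Kif26b at -4.29, Kif21a at -2.62, Kif21b at -1.18 and Kif9 at -0.55 fell, and Kif19a rose by 0.75. Stromal markers summed to 72.0 to 73.5 CPM with IL-7 and CXCL12 and to 735 to 1202 CPM with IL-7. Myeloid markers summed to 1693 to 1829 CPM with IL-7 and CXCL12 and to 158 to 213 CPM with IL-7, and megakaryocyte markers to 87.2 to 91.0 CPM with both and 11.5 to 17.6 CPM with IL-7. Their part in these changes was not tested. Under library totals alone 34.3% of all called genes rose, against 48.1% here.

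CXCR4-/- cultures without IL-7 were set against sufficient cultures without IL-7. There the stromal sum and 65.6% of all genes differed with genotype (31% higher, 34.6% lower), and the labelled stage did in part. Mitotic kinesins split, with Kif22 and Kif2c higher and Kif14 lower. Of the transport kinesins 9 fell and 1, Kif3a, rose. Kif1b was at 9.08 and 12.9 CPM in CXCR4-/- cultures, against 29.1 and 29.3 CPM in sufficient ones (log2 change -1.42 ± 0.25, edgeR adjusted p = 0.00042). Kif13b fell by 2.10 and Kif13a by 1.21 on the log2 scale. Of the other kinesins 7 of 8 fell, Kif2a being the exception at 0.11, and Kif7, a regulator of Hedgehog signalling at the cilium tip, fell by 1.79. Kif1a and Kif21a had 0 counts in CXCR4-/- cultures, so they were at least 16.6-fold and at least 18.7-fold lower, with 3 counts over the group as the floor. Kif26b had 2 counts in CXCR4-/- cultures against 443, a ratio of 111 of sufficient over CXCR4-/- cultures (95% exact counting interval 30.6 to 921, counting error only). Without the second CXCR4-/- library 11 mitotic kinesins were called, 2 higher and 9 lower, and without the first 3 higher and 1 lower.

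**Figure D5:**
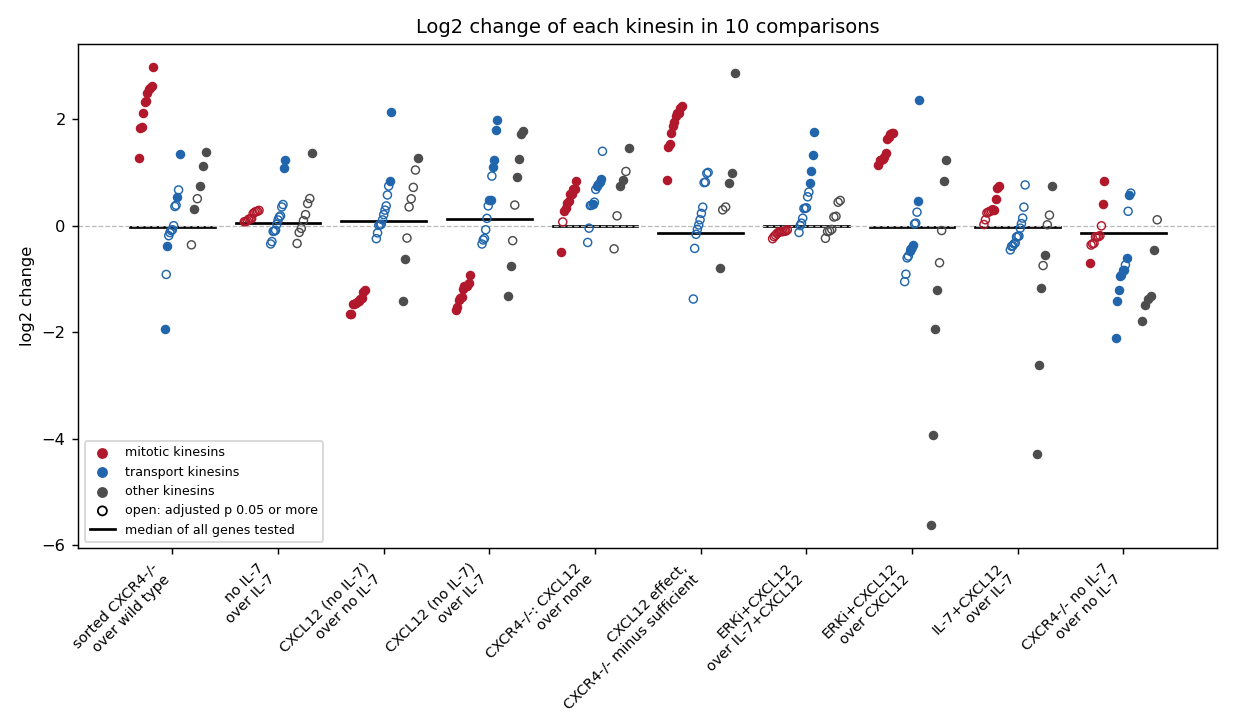
Log2 change (y axis) of each kinesin in the 10 comparisons (x axis), mitotic in red, transport in blue and other in grey; filled points passed an adjusted p of 0.05, open points did not, and black bars are the median of all 14862 genes tested. Kif1a, Kif21a and Kif26b are left out where a group held few or no counts; mitotic points lie between 1.26 and 2.98 for sorted CXCR4-/- over wild type, between -1.66 and -1.20 for CXCL12 without IL-7, and between 0.87 and 2.25 for the difference between genotypes.

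Levels of single kinesins across groups differed in which group led. Among mitotic kinesins 7 of 11 had their highest group mean in CXCR4-/- cultures with CXCL12, 2 in sorted CXCR4-/- cells (Kif14 and Kif18b), 1 with IL-7 and CXCL12 (Kif20b) and 1 in CXCR4-/- cultures without CXCL12 (Kif22). In 5 of these the leading group overlapped the next. The ratio of highest to lowest group mean ran from 4.05 for Kif20b to 8.41 for Kif22. Transport kinesins had their highest mean without IL-7 with CXCL12 in 5 of 13 and their lowest in CXCR4-/- cultures without IL-7 in 8 of 13. Shares of all genes by highest or lowest group were not counted, so these orders may not be particular to kinesins. In CXCR4-/- cultures without IL-7, 34.6% of all genes were called lower than in sufficient ones. Kif21b followed an order of its own, with 982 and 1101 CPM in sorted CXCR4-/- cells, 628 and 610 CPM in sorted wild-type cells and 165 to 195 CPM in the 4 Gapdh-high libraries. In CXCR4-/- cultures it was at 294 and 355 CPM with CXCL12 and at 133 and 224 CPM without.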

How the data were processed

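The deposited table holds whole-number read counts per gene symbol for 18 RNA-seq libraries. Per the labels' protocols, RNA of flow sorted B cells was captured with oligo-dT and made into TruSeq Stranded mRNA libraries. The submitters' processing notes name STAR, featureCounts and the build mm9. Versions, annotation and the strand setting of the counting are not given in the sources used here, so reads of near-identical copies and of antisense genes may be shared. Peak lists of the series were not used here. From the counts the authors deposited, CPM values were computed per library total and genes were filtered with edgeR's filterByExpr (minimum count 10), leaving 14862 genes. All 18 libraries in 9 groups were fitted together with edgeR 4.0.16 (TMM scaling, quasi-likelihood test, R 4.3.3), and 10 comparisons were adjusted over all genes. A gene was called at an adjusted p under 0.05. DESeq2 1.42.0 was an alternative. The method was tested on simulated data. Levels were not compared between genes, since transcript lengths were not used.

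The family members, classes and gene lists were chosen with earlier results of these data known. Kif2a, which also works at spindle poles, was placed with the other kinesins, so ranges given for the mitotic class leave it out. Every member that passed the filter could be named; for each comparison the largest and smallest change of the mitotic and of the other classes were named, with called members moving against their class, and up to 4 called genes with the smallest p of each other list. Genes named beside these, such as Kif13b and Kif5b where they were not called, were chosen after their values were seen. In all, 11 alternatives were tried and each of the 18 libraries was left out in turn. Where a group then held 1 library, it was taken to vary like the other groups. Promoters were RefSeq windows of GRCm38.p6, matched by symbol.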

Additional observations from a re-analysis of the deposited data

Results flagged for a closer look

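The response to CXCL12 without IL-7 differed between CXCR4-/- and sufficient cultures for 15 of 32 kinesins, beside 25.2% of all genes. This was by the test of the difference itself in the fit of all libraries (edgeR, adjusted p under 0.05). Values are differences of log2 changes, CXCR4-/- minus sufficient. The spindle motors Kif11 and Kif15 stood at 2.25 and 2.12. The chromosome motors Kif2c, Kif4, Kif18a and Kif22 stood at 1.48, 1.75, 2.06 and 0.87, and Kif18b of astral microtubules at 1.88. The cytokinesis motors Kif14, Kif20a, Kif20b and Kif23 stood at 2.21, 2.13, 1.95 and 1.53. Outside the mitotic class, Kif24, Kif9 and Kif2a stood at 2.87, 0.98 and 0.81, and Kif19a at -0.79. Without the first CXCR4-/- library lacking CXCL12, Kif9 gave 0.83 (adjusted p = 0.069) and Kif19a -0.44 (adjusted p = 0.13). The labelled stage differs in part between these cultures, and so does the stromal sum, at 92.1 to 95.8 CPM with and 83.2 to 103.8 CPM without CXCL12 in CXCR4-/- cultures, against 3882 to 3968 and 1628 to 1654 CPM in sufficient ones, which cannot be told apart from genotype.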

How the results depend on the processing

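The counts of mitotic calls were the firmest: 11 in sorted cells, for CXCL12 without IL-7 against no IL-7 and against IL-7, and for ERK inhibitor against none, when any 1 library was left out, and 10 to 11 for the difference between genotypes. The count of all kinesins called moved more. Without IL-7 over with IL-7, 3 were called, and 5 with DESeq2, 17 with only the groups compared, 1 with close pairs summed and 10 without the library that stood apart; leaving out a library gave 1 to 2. For CXCL12 without IL-7 over none, 16 were called, 28 with only the groups compared and 12 to 14 with a library left out. In CXCR4-/- cultures 17 were called, 1 at a 2-fold minimum, 0 with only the groups compared, without the 4 Gapdh-high libraries or with close pairs summed, 8 without the library that stood apart and 0 to 25 with a library left out. The difference between genotypes gave 15, and 12 to 25 with a library left out. For ERK inhibitor over IL-7, both with CXCL12, 4 were called, 14 with only the groups compared, 2 with close pairs summed, 10 without the library that stood apart and 1 to 3 with a library left out. For CXCL12 with IL-7, 9 were called, 3 at a 2-fold minimum, 22 with only the groups compared, 5 with close pairs summed, 21 without the library that stood apart and 4 to 5 with a library left out. For CXCR4-/- over sufficient cultures without IL-7, 20 were called, 10 at a 2-fold minimum, 4 with only the groups compared and 17 to 27 with a library left out. Kif18a reversed there, at 0.22 (adjusted p = 0.044), without the library that stood apart and at -0.36 without the second library of that group, beside -0.0001 with all. The cause of these shifts was not tested. Leaving out a library gave 16 to 18 of 20 in sorted cells, 20 to 22 of 23 for CXCL12 without IL-7 over IL-7 and 19 to 21 of 21 for ERK inhibitor over none. Same-numbered libraries of the groups compared did not deviate together (correlations of -0.07 to 0.21), so the replicate numbers were not taken to pair them; with the replicate block 20, 2, 17, 23, 17, 16, 4, 21, 8 and 20 kinesins were called in the 10 comparisons, in the order sorted cells, IL-7 withdrawal, CXCL12 over none, CXCL12 over IL-7, CXCR4-/- cultures, difference between genotypes, ERK inhibitor over IL-7, ERK inhibitor over none, CXCL12 with IL-7, and genotype without IL-7. The median of all genes was over 0.1 from 0 on the log2 scale for CXCL12 without IL-7 over IL-7 (0.12), the difference between genotypes (-0.14) and genotype without IL-7 (-0.13). With 2 libraries a group, low kinesins such as Kif1a and Kif5a, at or below 2 CPM, were the least certain.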
